A study of Rattus norvegicus with 16 samples.

Results

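The cytosolic ribosomal protein genes, which encode the proteins of the large and the small subunit of the ribosome in the cytoplasm, were followed in rat sciatic nerve after a crush injury. They were chosen by symbol from the deposited gene tables: Rpl or Rps followed by a number and, where present, the letter a, x or y, together with Rplp0, Rplp1, Rplp2, Rpsa and the paralogs Rpl10l, Rpl22l1 and Rps27l. The rule found 80 of the 31038 genes, 48 of the large and 32 of the small subunit, and used no measured value. All 80 passed the filter on low counts in every comparison, and none was listed at 0 in any library.

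The 16 sequenced libraries form 8 groups of 2: Schwann cells and whole nerve, each from uncrushed nerve and from nerve taken 3, 5 or 7 days after the crush. The crush was made on the left side, at mid-thigh, on postnatal day 18, the age that the labels give for every group, and the distal segment was collected. Uncrushed groups are the matching segment of uninjured nerve, collected without a sham operation, and there is no statement here of whether they were collected with the crushed nerves of each day. Schwann cells were purified from dissociated nerve by immunopanning, in which antibody-coated dishes removed CD45+ myeloid cells and Thy1+ fibroblasts before Schwann cells were bound through their O4 antigen, while whole nerve was not dissociated. No strain is given, each purified sample pooled at least 10 nerves, and nothing says whether the 2 libraries of a group came from separate animals, so the p-values measure the spread between these libraries, which may be technical.

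A ribosome needs one copy of nearly every ribosomal protein, so these genes are usually expressed together and at high level. Their mRNAs carry a terminal oligopyrimidine (TOP) sequence, a C followed by a run of C and T at the first base of the transcript, through which growth signals that act on mTOR control their translation. Schwann cells that lose contact with an axon leave the myelinating state, divide and take up debris.

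Library depth lay between 10555067 and 27562637 expected counts. In Schwann cells all 9 Schwann cell markers were above 3 counts in every group, and the summed TPM of 6 macrophage markers was 4.8 to 24.1 against 189 to 843 in whole nerve. The second Schwann cell library of day 3 stood apart from the first in markers of other cell types, with summed TPM of 24.1 against 4.8 for macrophages, 6.51 against 1.11 for endothelium and 30.9 against 13.2 for pericytes and smooth muscle. Mitochondrial genes set uncrushed whole nerve apart, with 26.5% to 28.6% of TPM against 11.4% to 16.5% in its crushed libraries and 7.36% to 13.0% in purified cells. Whole nerve results depend on the scale. Relative to its value on counts, the median log2 fold change of all genes shifted on log2(TPM + 1) by 0.29, 0.39 and 0.29 at days 3, 5 and 7 in whole nerve. In Schwann cells it shifted by -0.19, -0.14 and -0.14. In whole nerve, fewer cells of a type and less RNA per cell cannot be told apart.

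The first bases of the transcripts were examined because they carry the TOP sequence. RefSeq records of the rat assembly GRCr8 give the promoter of 64 of the 80 genes, and the 30 bases below run 5′ to 3′ on the strand of the gene, from 10 bases before the annotated start. They show both members of the paralog pairs Rpl22 and Rps27 and the genes with the largest rise in Schwann cells. Capitals mark the pyrimidine run, a C within 5 bases of the start followed by C or T to a length of at least 5, and sequences without capitals hold none.
Rpl22, chr5:168117951-168117980, plus strand: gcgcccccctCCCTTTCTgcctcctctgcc
Rpl22l1, chr2:113683186-113683215, plus strand: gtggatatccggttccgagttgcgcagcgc
Rps27, chr2:177964587-177964616, minus strand: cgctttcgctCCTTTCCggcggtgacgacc
Rps27l, chr8:76443648-76443677, plus strand: ttcatttgtcattatttgtggtgtccagag
Rpl39, chrX:121195877-121195906, minus strand: taatcgcgttCTTCCggcctgtcctttctc
Rplp0, chr12:46718371-46718400, minus strand: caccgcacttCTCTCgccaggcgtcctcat
Rpl41, chr7:1563478-1563507, minus strand: ctcggaagtgacgacaccaagcacgccatt
The run was found in 40 of the 64 genes (62.5%), against 17.0% of all 33469 promoters. The annotated first base was C in 53.1% of the 64 and in 24.1% of all promoters. The letters CGGAAG, the core that ETS factors such as GABP recognise, lay on one or the other strand of the 300 bases in 36 of the 64 genes against 16.6% of all promoters, and TATAAA lay on the same strand in the 60 bases before the start in 6.25% against 2.61%. Rpl22 and Rps27 hold the run and their paralogs Rpl22l1 and Rps27l do not. Annotated starts can be off by some bases, and no match says only that these letters are not in this window.

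In Schwann cells most ribosomal protein genes were higher at every day after crush. Read counts were compared with edgeR's quasi-likelihood test over all genes of the tissue, and a gene was called at a Benjamini-Hochberg adjusted p under 0.05. At day 3, 67 of the 80 rose and 0 fell, where 26.9% of all 14961 genes tested rose and 25.7% fell. At day 5, 73 rose and 0 fell (29.0% of all genes rose and 25.6% fell). At day 7, 71 rose and 0 fell (25.0% of all genes rose and 21.9% fell). At an unadjusted p under 0.05 the counts that fell were also 0, as they were with DESeq2. The 3 comparisons share the uncrushed libraries. Median log2 fold changes of the 80 were 0.58, 0.61 and 0.68 at days 3, 5 and 7, or 1.49-fold, 1.52-fold and 1.60-fold, beside medians of 0.00, 0.06 and 0.06 over all genes. On log2(TPM + 1) the medians were 0.34, 0.48 and 0.53, which lie 0.53, 0.56 and 0.60 above the median of all genes on that scale, and limma called 40 higher and 1 lower at day 3.

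Called at all 3 days in Schwann cells were 64 of the 80 genes (18.6% of all genes were called higher at all 3 days), and 11 were called at 1 or 2 days. The genes called at no day were Rpl10l, Rpl30, Rpl9, Rps14 and Rps3a. Without a test, all 6 crushed Schwann cell libraries lay above both uncrushed ones for 69 of the 80, where 27.6% of all genes did so. Large and small subunit genes moved alike, with medians of 0.59 and 0.56 at day 3, 0.60 and 0.61 at day 5, then 0.65 and 0.70 at day 7.

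The summed share of the 80 genes shows the same rise within single libraries. Uncrushed Schwann cells gave 7.30% and 7.08% of TPM, a unit that corrects for gene length and sums to the same total in each library. Day 3 gave 9.07% and 9.35%, day 5 gave 9.55% and 10.4%, and day 7 gave 10.4% and 9.95%, so that every crushed library exceeded both uncrushed ones. Crushed over uncrushed, the mean share was 1.36-fold. Whole nerve gave 9.07% and 9.08% uncrushed, 15.1% in each library at day 3, 12.7% and 12.1% at day 5, then 15.1% and 13.4% at day 7, which is 1.53-fold. With mitochondrial genes and Rn18s left out of the total, these ratios were 1.41-fold in Schwann cells and 1.26-fold in whole nerve, so the larger of the 2 ratios depends on the total used.

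**Figure D1:**
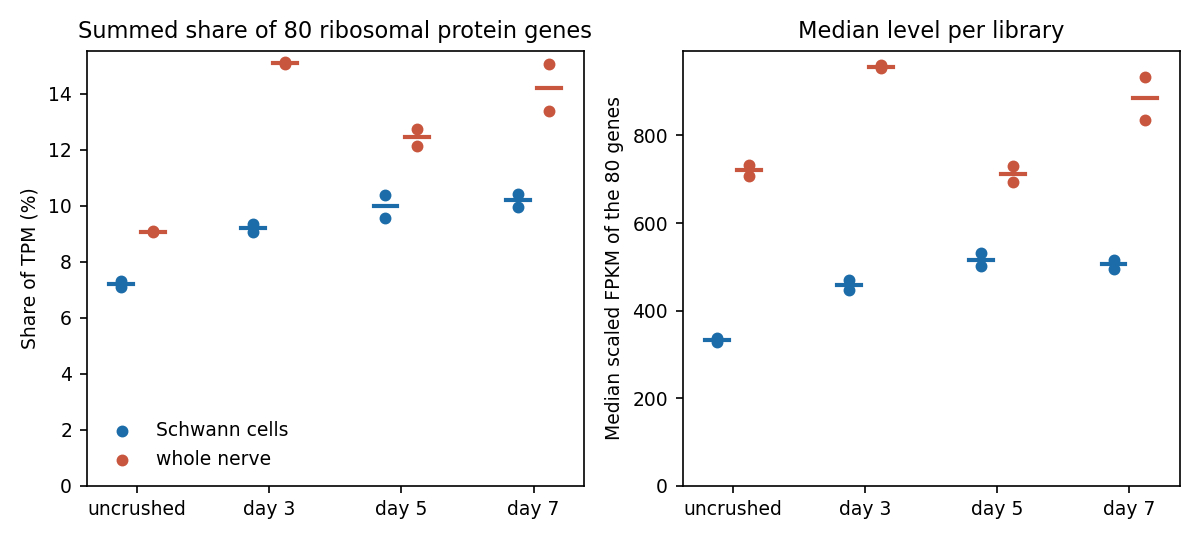
Left, summed share of the 80 ribosomal protein genes in the TPM of each library (percent); right, median level of the 80 genes in each library (scaled FPKM); points are libraries and bars the mean of the 2 libraries of a group. In Schwann cells both measures lie higher in all 6 crushed libraries than in the uncrushed ones, and in whole nerve the median level at day 5 (731 and 694) lies beside that of uncrushed nerve (733 and 707).

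Levels between genes are compared here as scaled FPKM, expected counts per kilobase of effective length and per library total, with those totals scaled by TMM factors over the 16 libraries. The median gene stood at 329 and 338 in uncrushed Schwann cells, at 446 and 471 on day 3, at 502 and 531 on day 5 and at 515 and 496 on day 7. Whole nerve levels were higher throughout: 733 and 707 uncrushed, 962 and 953 at day 3, 731 and 694 at day 5, then 934 and 836 at day 7. Rpl21, a protein of the large subunit, had the highest mean level of the 80 in uncrushed Schwann cells, 1755 ± 89.97 (SD, n = 2), followed by Rpl31 at 1089 ± 57.3. Rpl10l, a paralog of Rpl10 known from testis, was the lowest in every group, with a mean between 0.75 and 2.67.

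The fold changes of the 80 genes spread less than those of other genes. The SD of log2 fold changes among them was 0.34, 0.29 and 0.33 in Schwann cells on the 3 days, against 1.52, 1.52 and 1.38 over all genes. Ribosomal protein genes are short and abundant, so they were set beside the 88 other genes whose mean effective length and mean TPM over the Schwann cell libraries both lay between the 5th and 95th percentile of the 80. Medians of these 88 were 0.70, 0.67 and 0.56, and 70.5%, 75.0% and 71.6% of them rose, with 12.5%, 11.4% and 11.4% falling. Their SDs were 0.90, 0.88 and 0.86. The median rise of the ribosomal protein genes was therefore close to that of other short, abundant genes of these libraries, while their spread was smaller.

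**Figure D2:**
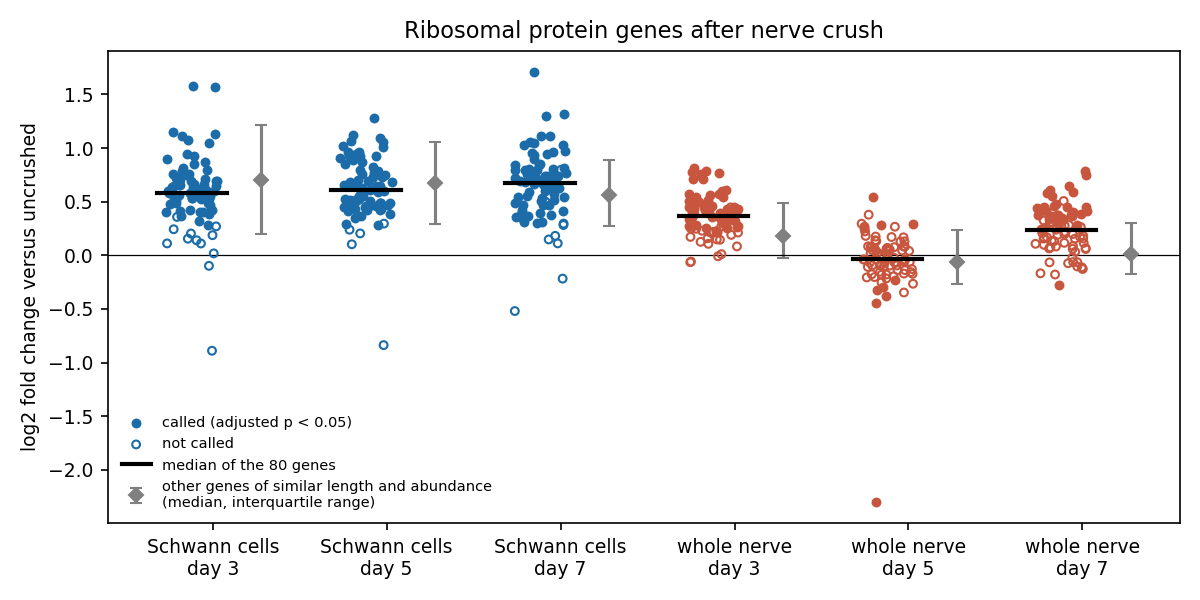
Log2 fold change against uncrushed of each of the 80 genes (circles; filled where the adjusted p of edgeR was under 0.05) for Schwann cells (blue) and whole nerve (red), with the median of the 80 (black bar) and the median and interquartile range of other genes of similar length and abundance (grey). Schwann cell medians are 0.58, 0.61 and 0.68 and whole nerve medians 0.37, -0.04 and 0.24; on log2(TPM + 1) the median for whole nerve at day 5 is 0.46.

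The P-stalk, a flexible arm of the large subunit that recruits and activates elongation factors, rose in Schwann cells like most of the 80 genes. Rplp0, which anchors the stalk, measured 191 and 217 scaled FPKM in uncrushed Schwann cells, then 438 and 433 at day 3, 370 and 482 at day 5, and lastly 490 and 498 at day 7. Every crushed library lay above both uncrushed ones, and the log2 fold changes were 1.13 ± 0.13 (SE, adjusted p = 6.6e-05) and 1.09 ± 0.13 at days 3 and 5, with a 2.46-fold rise at day 7. Rplp1, one of the acidic proteins that bind Rplp0, measured 285 and 411 uncrushed, then 583 and 724, 707 and 776, and 734 and 679, with log2 fold changes of 0.95, 1.12 and 1.05. Rplp2, the partner of Rplp1, gave 0.72, 0.85 and 0.80, and Rpl12, at the base of the stalk, gave 0.58, 0.91 and 0.80. All 4 were called at each day, where 67, 73 and 71 of the 80 and 26.9%, 29.0% and 25.0% of all genes were.

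In whole nerve 2 of the 4 stalk genes, Rplp0 and Rplp2, rose at day 3, none rose at day 5, and Rplp0 rose at day 7. Over these 3 days 56, 4 and 31 of the 80 ribosomal protein genes rose in whole nerve. Among all genes the shares that rose there were 23.1%, 18.9% and 15.4%. Rplp0 measured 601 and 572 uncrushed, 831 and 837 at day 3, 749 and 664 at day 5, then 824 and 839 at day 7. It was called at day 3 (0.44 ± 0.08, adjusted p = 0.0019) and at day 7 (0.41), with 0.17 at day 5. Rplp1 measured 1337 and 1330 uncrushed and 1228 and 1055 at day 5, where it fell by 0.32 on the log2 scale (adjusted p = 0.040), but on log2(TPM + 1) the same contrast was 0.17. At days 3 and 7 Rplp1 gave 0.11 and -0.06, which did not pass. Rplp2 was called at day 3 at 0.39 ± 0.09 (adjusted p = 0.0061), with 0.01 at day 5 and 0.13 at day 7. Rpl12 was called at no day in whole nerve, at 0.08, -0.26 and -0.17.

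Around the peptide exit of the large subunit, Rpl39 stood out. Rpl39 lines the tunnel through which the new chain leaves and is one of the shortest ribosomal proteins. Schwann cells gave 92.6 and 165 scaled FPKM uncrushed, 355 and 392 at day 3, 237 and 256 at day 5, then 386 and 438 at day 7, so all crushed libraries lay above the uncrushed ones, which differed from each other by 0.83 on the log2 scale. The log2 fold change was 1.58 ± 0.22 at day 3 (adjusted p = 0.00024), the highest of the 80, 0.97 ± 0.22 at day 5 and 1.71 ± 0.22 at day 7, again the highest. Rpl4 and Rpl17, which form the narrow part of the tunnel and its lower wall, moved less: Rpl4 gave 0.14 at day 3, below the threshold, and was called at 0.39 and 0.37, and Rpl17 was called at 0.40, 0.29 and 0.41. The 5 genes around the exit site, where nascent chains meet targeting factors (Rpl19, Rpl23a, Rpl26, Rpl31 and Rpl35), were all called at each day, like most of the 80, with medians of 0.65, 0.65 and 0.77 and a range from 0.44 to 0.84 over the 3 days. At these days 26.9%, 29.0% and 25.0% of all genes rose in Schwann cells.

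Rpl41, the smallest protein of the ribosome, which sits between the subunits, followed Rpl39 closely at day 3. Its levels were 700 and 830 scaled FPKM in uncrushed Schwann cells, then 2226 and 2215 at day 3, 1701 and 1947 at day 5, and lastly 1724 and 2017 at day 7. The log2 fold changes were 1.57 ± 0.13 (adjusted p = 6.1e-06), 1.28 ± 0.13, the highest of day 5, and 1.31 ± 0.13. In whole nerve Rpl41 went from 2706 and 2739 to 4951 and 4698 at day 3 and 5717 and 4321 at day 7, and was called at both, at 0.76 and 0.79. Rpl39 had the shortest mean effective length of the 80, 105 bases, against 254 for Rpl41. Across the 80 genes the Spearman correlation of log2 fold change with effective length was -0.31, -0.16 and -0.27 in Schwann cells on days 3, 5 and 7, a description over 80 genes that share the same libraries.

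**Figure D3:**
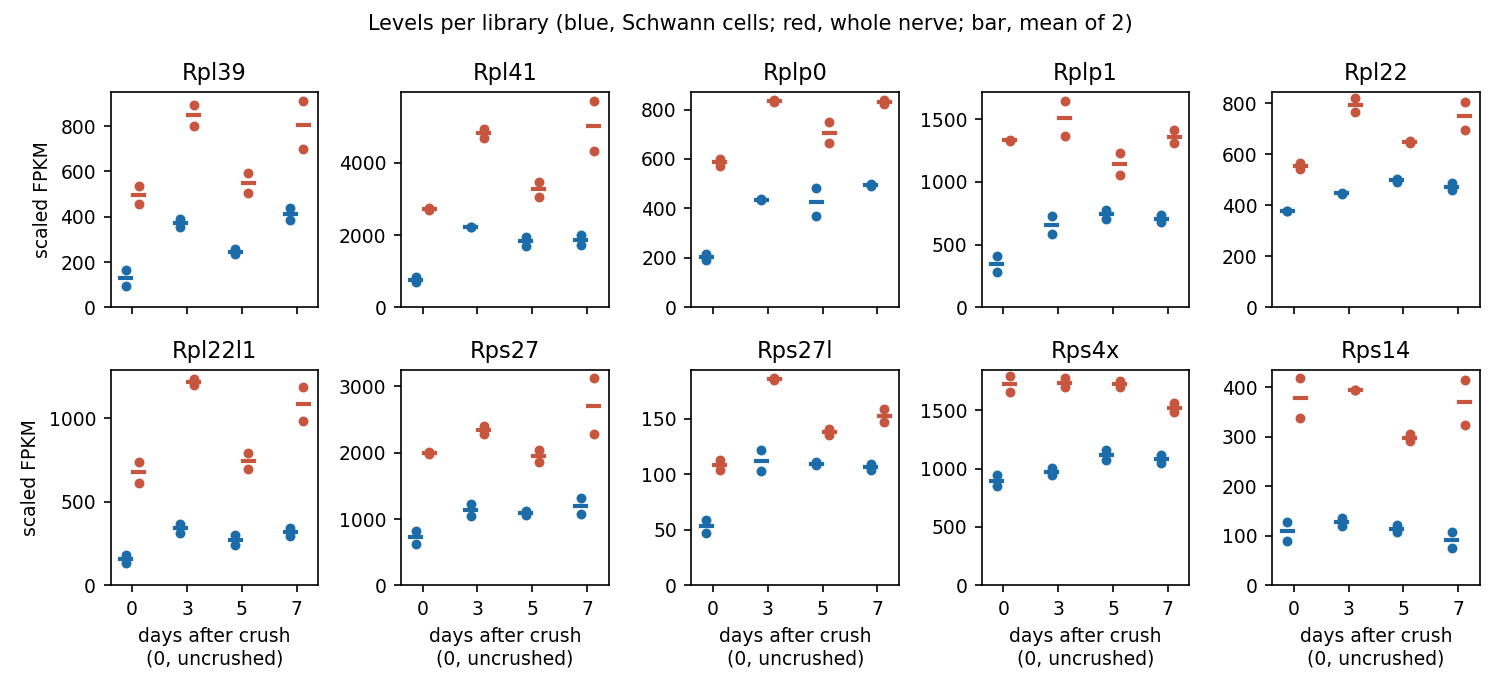
Scaled FPKM per library of 10 ribosomal protein genes against days post-crush (0, uncrushed; linear axes from 0); blue, Schwann cells; red, whole nerve; bars, mean of 2 libraries. Rpl39, Rpl41, Rplp0 and Rplp1 lie higher in every crushed Schwann cell library than in the uncrushed ones, Rps4x in whole nerve lies lowest at day 7 (1486 and 1557), and Rps14 in Schwann cells overlaps between groups.

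Rpl5 and Rpl11, which bind the 5S ribosomal RNA and, when free of the ribosome, the p53 regulator Mdm2, differed from each other. Rpl11 measured 395 and 379 in uncrushed Schwann cells and 623 and 651 at day 3, and was called at each day, at 0.75, 0.65 and 0.63. Rpl5 measured 1160 and 900 uncrushed and 1128 and 1044 at day 3, so the groups overlapped, and of its log2 fold changes of 0.11, 0.45 and 0.28 only that at day 5 was called.

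On the small subunit, the genes around the mRNA channel and the decoding site rose in Schwann cells much as the whole set did: 5 of 6 at day 3 and 6 of 6 at days 5 and 7, beside 67, 73 and 71 of the 80 and 26.9%, 29.0% and 25.0% of all genes, with medians of 0.67, 0.72 and 0.81. Rps2, at the mRNA entry, measured 140 and 134 scaled FPKM uncrushed, 220 and 199 at day 3, 260 and 253 at day 5, then 278 and 273 at day 7. It was called at 0.64, 0.93 and 1.03, and day 7 exceeded day 3 by 0.39 (adjusted p = 0.016). Rps26, near the mRNA exit, went from 822 and 775 to 1485 and 1428 at day 3, and was called at 0.90, 0.79 and 0.96. Rpsa, also known as the laminin receptor, was called at 0.70, 0.79 and 0.84, Rps28 at 0.69, 0.64 and 0.77, and Rps23, in the decoding centre, at 0.32, 0.43 and 0.38. Rps3, at the entry of the channel and also a DNA repair protein, was the exception at day 3 (0.19, adjusted p = 0.19) and was called at 0.46 and 0.31.

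Other small subunit genes spanned the range. Rps6, the target of S6 kinase, was called at 0.40, 0.52 and 0.52. Rps19, mutated in Diamond-Blackfan anaemia, was called at 0.79, 0.76 and 0.85, and Rps27a, made as a fusion with ubiquitin, at 0.75, 0.65 and 0.71. Rps20 was called at 1.05, 0.94 and 0.95 and Rps21 at 0.87, 1.01 and 0.80. Rps4x, the copy carried by the X chromosome, gave 0.16 at day 3 (adjusted p = 0.21) and was called at 0.35 and 0.30. Among large subunit genes, Rpl38, known for its part in the translation of Hox mRNAs, was called at 0.85, 0.63 and 0.73, Rpl36a at 0.58, 0.52 and 0.51, and Rpl13a, known for silencing of inflammatory mRNAs, at days 5 and 7 with 0.36 and 0.39 after 0.24 at day 3.

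The lower end of the distribution at day 3 held Rpl10l, Rpl3 and Rps9. Rpl10l measured 1.65 and 1.32 scaled FPKM uncrushed and 0.35 and 1.14 at day 3, a log2 fold change of -0.89 ± 0.70 that did not pass (adjusted p = 0.31). Rpl3, near the peptidyl transferase centre, measured 414 and 377 uncrushed, 359 and 363 at day 3, 511 and 530 at day 5, then 510 and 458 at day 7. It gave -0.10 ± 0.10 at day 3, with -0.35 and a call on log2(TPM + 1), and was called at days 5 (0.42) and 7 (0.31), and day 7 exceeded day 3 by 0.41 (adjusted p = 0.014). Rps9 gave 0.02 at day 3 and 0.30 at day 7, and was called at day 5 (0.52, adjusted p = 0.0042). Rps14 measured 90.2 and 128 uncrushed, 120 and 136 at day 3, 122 and 107 at day 5, then 107 and 76.2 at day 7, with overlapping groups and no call.

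Between days 3 and 7 in Schwann cells, few of the 80 genes differed. Higher at day 7 were 4 (background 10.2% of all genes) and lower was 1, Rpl8 at -0.37 (background 10.7%), and the median was 0.07. Leaving out single libraries gave 1 to 3 calls in all, so this count depends on each of the 4 libraries. Rpl30 and Rps14 gave the outermost values, 0.69 ± 0.60 and -0.49 ± 0.20, and neither passed.

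**Figure D4:**
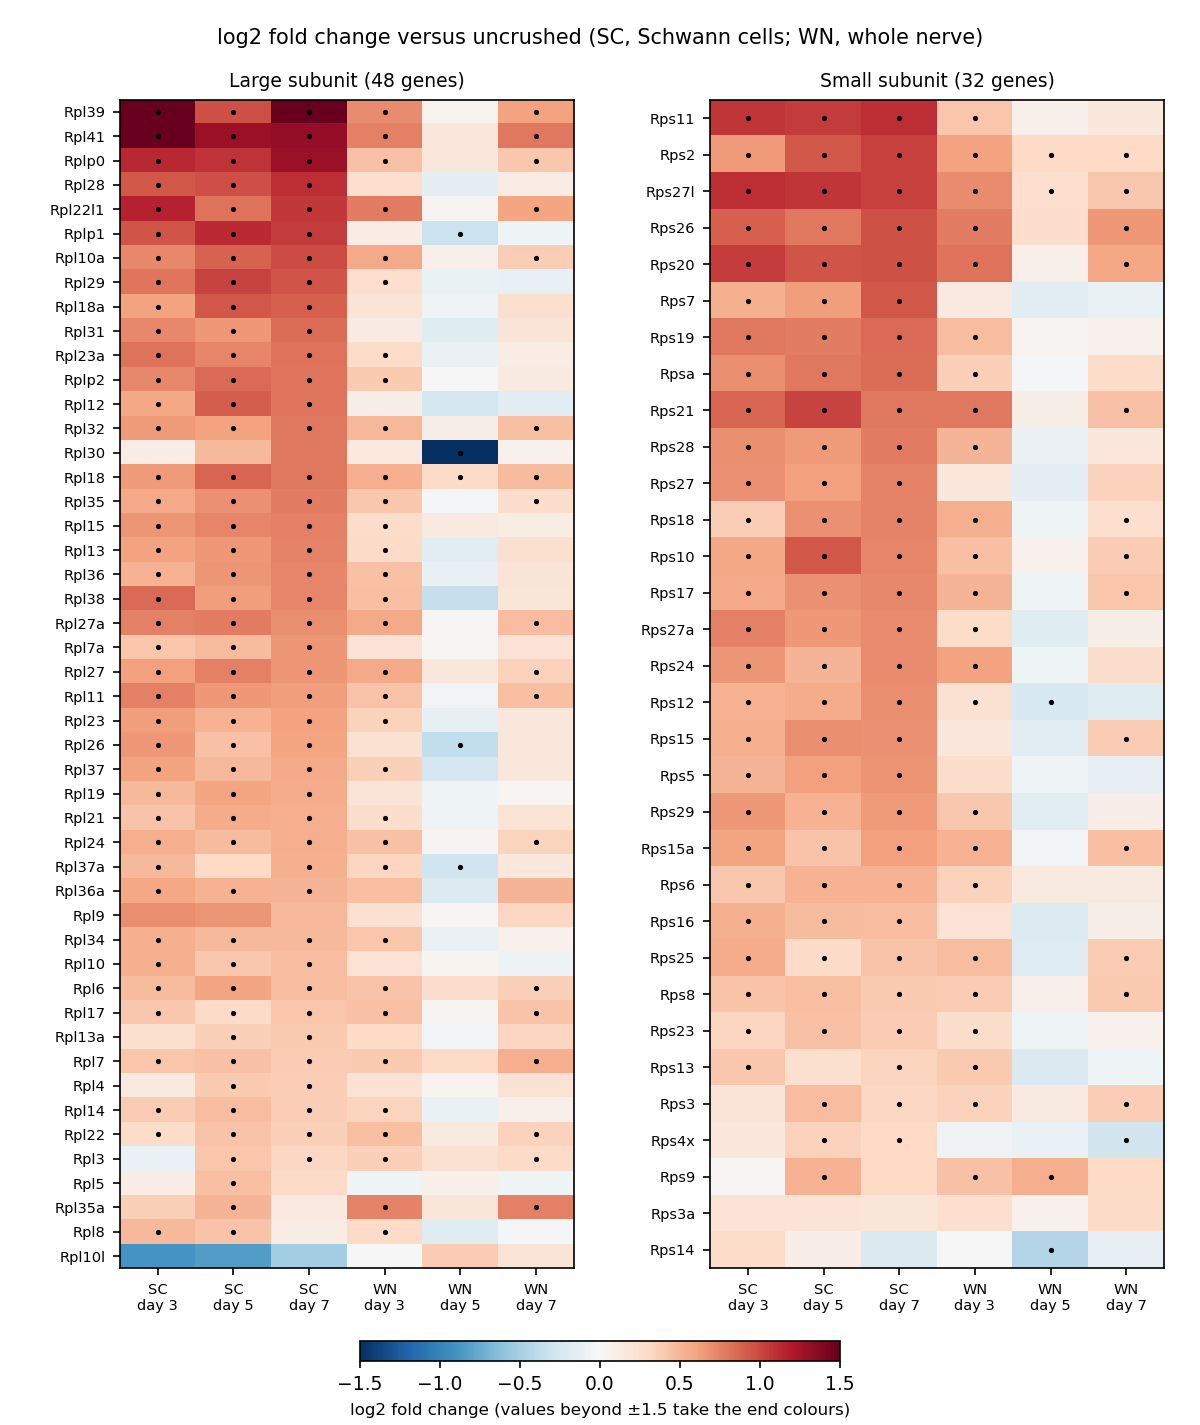
Log2 fold change against uncrushed for the 48 large and 32 small subunit genes in Schwann cells (SC) and whole nerve (WN) at days 3, 5 and 7, from blue (lower) to red (higher), with dots where the adjusted p of edgeR was under 0.05. The 3 Schwann cell columns are red for nearly all genes, and the whole nerve column of day 5 is close to white, apart from Rpl30 at -2.30; on log2(TPM + 1), 67 genes are called higher in that column.

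Whole nerve followed another course over the same days. At day 3, 56 of the 80 genes rose and 0 fell (23.1% of 15831 genes rose), with 0 falling at an unadjusted p as well, and the median log2 fold change was 0.37. At day 5, 4 rose and 6 fell (18.9% and 19.5% of all genes), with a median of -0.04. At day 7, 31 rose and 1 fell (15.4% and 15.9%), with a median of 0.24. On log2(TPM + 1) the calls were 77 up, then 67 up and 1 down, then 69 up, and the medians of 0.73, 0.46 and 0.60 lay 0.44, 0.08 and 0.30 above those of all genes on that scale. The fall from day 3 to day 5 and the return at day 7 were thus present on both scales, whereas the sign at day 5 depends on the scale. The 3 comparisons share the uncrushed libraries, which hold the highest share of mitochondrial RNA; its part in these values was not tested.

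The 86 other genes of similar length and abundance in whole nerve had medians of 0.18, -0.07 and 0.01 at days 3, 5 and 7, and 43.0%, 20.9% and 22.1% of them rose. The SD among the ribosomal protein genes was 0.20, 0.31 and 0.22, against 0.83, 0.83 and 0.72 among those 86. All 6 crushed whole nerve libraries lay above both uncrushed ones for 31 of the 80 genes (26.8% of all genes did so). Called higher at days 3 and 7 were 30 genes (12.2% of all genes were), of which Rpl18, Rps2 and Rps27l were also called at day 5 (10.8% of all genes were called higher at all 3 days). Leaving out 1 whole nerve library moved these counts: at day 3 the calls fell from 56 to 37 without the first and 34 without the second day 3 library, and at day 7 from 32 calls to 14 or 16 without one of the uncrushed libraries and 15 without the first day 7 library. At day 5 they fell from 10 to 3 or 4 without any 1 of the 4 libraries compared.

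Named whole nerve genes at day 3 were led by small subunit proteins. Rps20 measured 953 and 915 scaled FPKM uncrushed and 1604 and 1838 at day 3 (log2 fold change 0.81 ± 0.12, adjusted p = 0.00033). Rps21 went from 392 and 376 to 666 and 729 (0.79), and Rpl22l1 from 739 and 615 to 1200 and 1235 (0.78). At the lower end, Rps14 (-0.01), Rps4x (-0.06) and Rpl5 (-0.06) did not pass.

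At day 5 the genes called higher in whole nerve were Rps9, Rps2, Rpl18 and Rps27l, and those called lower were Rpl30, Rps14, Rpl26, Rplp1, Rpl37a and Rps12. Rps9 measured 332 and 294 uncrushed and 514 and 465 at day 5, a log2 fold change of 0.55 ± 0.12 (adjusted p = 0.0063). Rpl26, at the exit site and known to bind p53 mRNA, measured 1027 and 1121 uncrushed and 914 and 858 at day 5, and fell by 0.37 ± 0.09 on the log2 scale. Rps14 fell by 0.44 ± 0.13. Both falls have the opposite sign on log2(TPM + 1), at 0.12 and 0.06. At day 7 Rpl41 (0.79), Rpl35a (0.75) and Rps26 (0.64) led, and Rps4x fell by 0.27 ± 0.08, from 1796 and 1652 to 1486 and 1557, with 0.11 on log2(TPM + 1). From day 3 to day 7 in whole nerve 0 of the 80 rose, also at an unadjusted p, and the median was -0.13. Of the 80, 12 fell, a share near the background (11.4% of all genes fell), and 9 of these 12 were of the small subunit. Rps12 and Rps19 fell by 0.41 and 0.40, and leaving out either day 3 library left 3 calls.

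The calls of the tissues overlapped in unequal measure. At day 3, 52 genes were called higher in both, 77.6% of the 67 of Schwann cells and 92.9% of the 56 of whole nerve, and Rpl3, Rpl35a, Rps3 and Rps9 were called in whole nerve alone. Day 5 shared 4 genes, 5.48% of the 73 and all 4 of whole nerve. Day 7 shared 30, 42.3% of the 71 and 96.8% of the 31. Over all 14030 genes tested in both tissues, the genes called higher in both made up 50.04%, 39.5% and 30.8% of those of Schwann cells at the 3 days, and 61.5%, 62.8% and 53.5% of those of whole nerve. Called higher in Schwann cells and lower in whole nerve were Rpl26, Rplp1 and Rps12 at day 5 and Rps4x at day 7. Rps12, a protein of the small subunit, measured 259 and 281 uncrushed and 374 and 403 at day 5 in Schwann cells, and 697 and 704 uncrushed and 659 and 616 at day 5 in whole nerve. Its log2 fold changes there were 0.55 ± 0.11 and -0.23 ± 0.08. On log2(TPM + 1) the whole nerve values of Rpl26, Rplp1, Rps12 and Rps4x were 0.12, 0.17, 0.26 and 0.11.

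Whether the injury effect itself differed between Schwann cells and whole nerve was tested as a difference of differences over all 16 libraries. At day 3 it was larger in Schwann cells for 8 of the 80 genes and smaller for 1 (12.3% and 13.7% of 16829 genes), with a median of 0.08. At day 5 it was larger for 49 and smaller for 0 (12.6% of all genes larger), with a median of 0.55. At day 7 it was larger for 23 and smaller for 0 (11.6% larger), with a median of 0.29. Leaving out 1 library gave 5 to 15 calls at day 3: 5 without the first uncrushed Schwann cell library or the second whole nerve library of day 3, and 15 without the second uncrushed Schwann cell library. DESeq2 gave 14 there. At day 7 the range was 15 to 28, with 15 without the second uncrushed whole nerve library or the first Schwann cell library of day 7. Counts of 0 smaller stood beside 0 and 1 at an unadjusted p at days 5 and 7. On log2(TPM + 1) the calls were 0 larger and 32 smaller at day 3, 4 and 2 at day 5, then 6 and 9 at day 7. That scale moved the median of all genes by -0.40, -0.39 and -0.29, and relative to it the medians of the 80 were 0.03, 0.48 and 0.26, against 0.13, 0.59 and 0.36 on counts. Among the 81 other genes of similar length and abundance over all libraries the medians were 0.48, 0.64 and 0.38, and 38.3%, 59.3% and 39.5% were called larger in Schwann cells.

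Rplp1 was among the genes with the largest difference at each day, at 0.74 ± 0.22 (adjusted p = 0.023), 1.32 ± 0.22 and 1.00 ± 0.22. Rpl41 (0.71) was called at day 3, as was Rpl3 in the other direction (-0.56 ± 0.13, adjusted p = 0.0062). Rpl12 (1.05 ± 0.16) followed at day 5, and Rpl39 (0.99 ± 0.28, adjusted p = 0.019) and Rpl29, a heparin-binding protein of the large subunit (0.94 ± 0.15), at day 7. Rpl39 gave 0.77 at day 3 and 0.79 at day 5, neither of which passed (adjusted p = 0.057 and 0.051).

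On TMM-scaled counts whole nerve exceeded Schwann cells for most ribosomal protein genes before crush and on each day after it. Uncrushed, 78 of the 80 genes were lower in Schwann cells and 0 higher (35.3% of all genes were lower), with a median log2 difference of -1.07. At day 3, 78 were lower (32.8%), with a median of -0.98. At day 5, 69 were lower and 1, Rpl30, higher (28.4% lower), with a median of -0.56, and at day 7, 75 were lower (28.7%), with a median of -0.76. The counts of 0 higher were also 0 at an unadjusted p. On log2(TPM + 1) the calls were 5 higher and 38 lower uncrushed, 0 and 73 at day 3, 1 and 33 at day 5, then 2 and 43 at day 7, and relative to the median of all genes the members' medians were -0.78, -0.78, -0.43 and -0.60. Other genes of similar length and abundance were lower too, with medians of -1.001, -0.67, -0.43 and -0.57. Whole nerve was not dissociated, so cell type and dissociation cannot be told apart from these 16 libraries. The study also profiled dissociated nerve that was not immunopanned, which was not analysed here.

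Rpl22l1 had the largest difference between the preparations in uncrushed nerve, at -2.11 ± 0.17 uncrushed (adjusted p = 7.0e-08), -1.84 at day 3, -1.46 at day 5 and -1.76 at day 7. Rps14, a protein of the small subunit platform, gave -1.80, -1.62, -1.38 and -2.003. Rpl3 was closest to whole nerve in uncrushed cells, at -0.28 ± 0.09, a difference that has the opposite sign (0.53) on log2(TPM + 1). At day 7 Rps2 (-0.13) and Rpl29 (-0.14) did not pass, and both were 0.26 on log2(TPM + 1).

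The paralog pairs showed how much of each pair came from the less studied copy. Rpl22l1, which can replace Rpl22 in the ribosome, measured 133 and 181 scaled FPKM in uncrushed Schwann cells, then 366 and 316 at day 3, 301 and 243 at day 5, and lastly 295 and 346 at day 7. It was called at each day, at 1.15 ± 0.17, 0.82 ± 0.17 and 1.06 ± 0.17. Rpl22 measured 377 and 376, then 448 and 446, 505 and 491, and 487 and 460, and was called at 0.28, 0.43 and 0.35. Rpl22l1 per Rpl22 was 41.6% ± 9.0 (SD, n = 2) uncrushed, 76.2% ± 7.7 at day 3, 54.4% ± 7.2 at day 5 and 68.0% ± 10.4 at day 7. In whole nerve the same ratio was 122% ± 12.6, 153% ± 4.5, 115% ± 9.7 and 145% ± 4.0, so on this scale Rpl22l1 exceeded Rpl22 in whole nerve and stayed below it in Schwann cells. Rpl22 had fractional counts in all 16 libraries, where RSEM divides fragments between records, and Rpl22l1 had whole counts. The part of that division in the ratio was not tested. An exact permutation test of such a ratio (two-sided, 2 libraries per arm) cannot reach a p under 0.333, and none was run.

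Rps27l, a paralog of Rps27 known as a p53 target, measured 47.5 and 59.3 scaled FPKM in uncrushed Schwann cells, then 103 and 122 at day 3, 111 and 109 at day 5, and lastly 109 and 104 at day 7. It was called at 1.11, 1.07 and 1.03, beside 0.69, 0.61 and 0.74 for Rps27, and it was called in whole nerve at 0.71, 0.26 and 0.40, where Rps27 was called at no day. Rps27l per Rps27 was 7.39% ± 0.31 uncrushed, 9.84% ± 0.11 at day 3, 10.1% ± 0.60 at day 5 and 9.04% ± 0.98 at day 7 in Schwann cells, and 5.43% ± 0.40, 7.96% ± 0.35, 7.15% ± 0.67 and 5.76% ± 0.96 in whole nerve. Rpl10l per Rpl10 lay between 0.06% and 0.16% in every group. Rpl10 itself, at the heart of the late large subunit, was called in Schwann cells at 0.54, 0.41 and 0.47.

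Genes with and without the pyrimidine run shown above had overlapping fold changes, and no test compared them. In Schwann cells at day 3, 33 of the 40 genes with the run and 20 of the 24 without it rose, with medians of 0.58 and 0.57. At day 5 the medians were 0.62 and 0.58 (35 of 40 and 24 of 24 rose), and at day 7 they were 0.69 and 0.65 (35 of 40 and 23 of 24). In whole nerve genes with the run had the lower median at each day, 0.34 against 0.41, -0.08 against 0.03 and 0.23 against 0.28. Of them 25, 1 and 13 of 40 rose there, against 19, 3 and 11 of the 24 without the run. Among all genes, 26.9%, 29.0% and 25.0% rose in Schwann cells on the 3 days and 23.1%, 18.9% and 15.4% in whole nerve. Of the pair at the top of day 3 in Schwann cells, Rpl39 holds the run and Rpl41 does not in its annotated start.

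Rpl30 was read beside a second record. RSEM divides fragments that match several records between them, and 34 of the 80 genes had fractional counts in all 16 libraries, 12 in some and 34 in none. At day 3 in Schwann cells the rise was called for 31 of the 34 fractional, 8 of the 12 mixed and 28 of the 34 whole-count genes. Rpl30, a protein at the subunit interface, measured 347 and 259 scaled FPKM in uncrushed Schwann cells, then 89.2 and 543 at day 3, 287 and 548 at day 5, and lastly 489 and 548 at day 7, a difference of 2.61 on the log2 scale between the day 3 libraries. In whole nerve it measured 602 and 717 uncrushed, 587 and 940 at day 3, 148 and 140 at day 5, then 942 and 527 at day 7.

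The record LOC100362027, singled out after its values were seen, has no gene symbol of its own, a length of 486 bases against 464 for Rpl30, and fractional counts in all 16 libraries. That the 2 records share fragments is inferred from these counts and lengths and was not tested on sequence. Rpl30 made up 6.75% and 37.1% of the summed counts of both in the Schwann cell libraries of day 3, 9.57% and 9.92% in whole nerve at day 5, and between 25.7% and 49.0% in the other 12. The sum was steadier, at 359 and 398 TMM-scaled CPM (counts scaled to library size) in Schwann cells at day 3 and 420 and 382 in whole nerve at day 5. Fitted as 1 gene, the sum rose in Schwann cells by 0.66 ± 0.10 (adjusted p = 0.00043), 0.34 and 0.52, and in whole nerve it gave 0.34 at day 3, called, and -0.08 at day 5 and 0.24 at day 7, not called. Alone, Rpl30 was called at no day in Schwann cells, fell by 2.30 ± 0.28 in whole nerve at day 5, and gave a difference of differences of 2.66 ± 0.79 at day 5, where the sum gave 0.29 (adjusted p = 0.13). At day 5 Rpl30 alone exceeded whole nerve in Schwann cells by 1.54, and the sum was lower by 0.39.

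**Figure D5:**
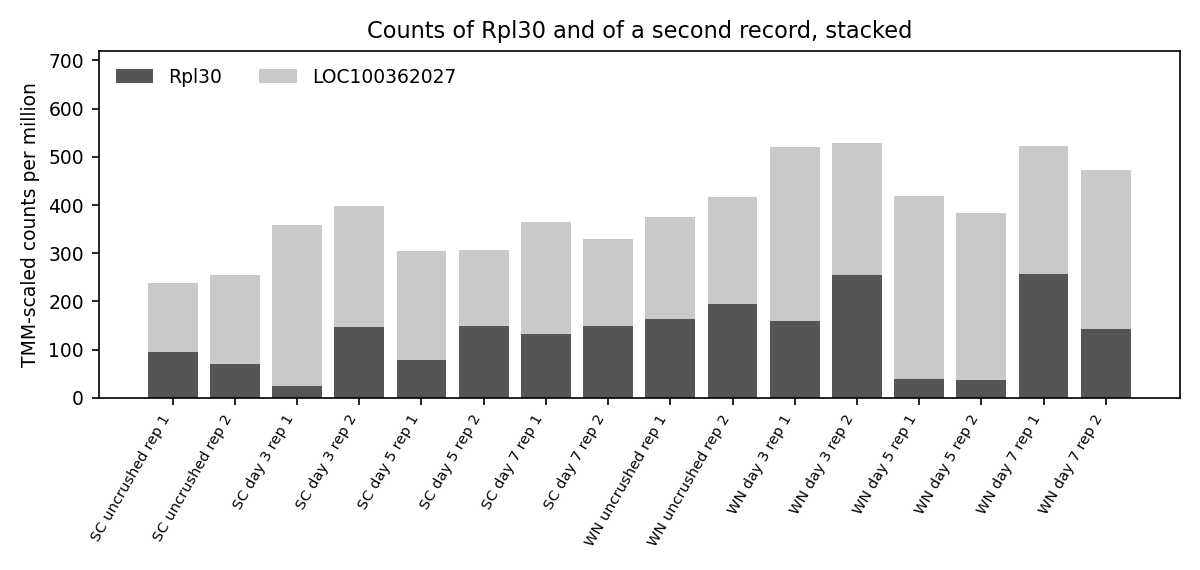
TMM-scaled CPM of Rpl30 (dark) and of the record LOC100362027 (light), stacked, in each of the 16 libraries; axis from 0. The dark part is smallest in the first Schwann cell library of day 3 and in both whole nerve libraries of day 5, while the stacked height there lies between 359 and 420.

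A few other genes differed between replicates by more than the rest, whose median difference within a group was between 0.06 and 0.21 on the log2 scale. Rpl9 measured 327 and 765 in uncrushed Schwann cells, a difference of 1.22, and was called at no day (0.70 ± 0.30, adjusted p = 0.073 at day 3). Rpl10l, with the fewest counts, differed by 1.72 at day 3 and again at day 7 in Schwann cells.

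Other genes of translation were read from lists of known function. Their counts of genes that rose stand against a background of 26.9%, 29.0% and 25.0% of all genes in Schwann cells and 23.1%, 18.9% and 15.4% in whole nerve at days 3, 5 and 7, and no test compared a list with the ribosomal protein genes. Of 6 ribosomal proteins outside the naming rule that were tested in Schwann cells, 4, 5 and 5 rose and 0 fell at days 3, 5 and 7, with medians of 0.56, 0.64 and 0.63. Rpl36al was highest at day 3, at 0.67, and Rpl7l1, a nucleolar relative of Rpl7, lowest, at 0.02. In whole nerve 3, 0 and 2 of 7 rose and 0, 1 and 0 fell. Of 18 elongation, initiation and related genes whose mRNAs are TOP mRNAs, 14, 17 and 14 rose and 0 fell, with medians of 0.55, 0.56 and 0.54. Eef1b2, an exchange factor of elongation factor 1, rose by 0.99 at day 3, and Eif4b, an initiation factor, gave -0.15, which did not pass. Whole nerve gave 12, 7 and 8 of these 18 higher and 0 lower.

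Of 27 ribosome biogenesis genes, whose products build ribosomes, 7 rose and 4 fell at day 3 in Schwann cells, 12 rose and 2 fell at day 5, and 8 rose and 1 fell at day 7, with medians of -0.12, 0.26 and 0.12. The background of genes that rose was 26.9%, 29.0% and 25.0% at these days, so the shares of days 3 and 7 lie near it and that of day 5 above it. Utp20, of the small subunit processome, rose by 1.04 at day 3, and Myc, a transcription factor that drives ribosome production, fell by 2.80, 2.42 and 1.95 at the 3 days. Its scaled FPKM was 111 and 112 in uncrushed Schwann cells and between 14.6 and 33.4 in the crushed ones, against 4.50 and 3.70 in uncrushed whole nerve and 5.80 to 12.03 in crushed whole nerve. Uncrushed Schwann cells thus exceeded uncrushed whole nerve by 4.75 ± 0.24 on the log2 scale, and the part of dissociation in that baseline was not tested here, where dissociated nerve without immunopanning was not analysed. Myc is an immediate early gene, a class known to respond to tissue dissociation. In whole nerve Myc rose by 1.21 at day 3 and 0.98 at day 5, and 13, 9 and 5 of the 27 rose while 1, 0 and 0 fell, where 23.1%, 18.9% and 15.4% of all genes rose, so the share of day 7 lies near the background. Of 12 regulators of the translation of these mRNAs 5, 6 and 4 rose and 0 fell in Schwann cells, with Eif4ebp2, a repressor of cap-dependent translation, at 1.16 at day 3 and Eif4ebp3 at -0.13, which did not pass, and in whole nerve 3, 1 and 0 rose and 1 fell at each day, which is near the background at day 3 and below it at days 5 and 7. Of 74 mitochondrial ribosomal protein genes 40, 55 and 55 rose and 0 fell in Schwann cells, with medians of 0.54, 0.78 and 0.70, and of 75 in whole nerve 19, 5 and 3 rose and 4, 9 and 4 fell, so that the share that rose in whole nerve was near the background at day 3 and below it at days 5 and 7. Mrpl49 was highest of them at day 3 in Schwann cells, at 1.83, and Mrpl30 lowest, at -0.84, which did not pass.

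Cell makeup moved with the same comparisons. The summed TPM of 6 genes of cell division was 238 to 293 in uncrushed Schwann cells, 559 to 576 at day 3, 522 to 546 at day 5 and 408 to 427 at day 7, and in whole nerve it was 38.3 to 39.1, then 467 to 506, 335 to 391 and 172 to 188. The 6 macrophage markers in whole nerve summed to 189 to 208 TPM uncrushed and to 802 to 843, 528 to 545 and 497 to 527 after crush. Without the second Schwann cell library of day 3, which held more macrophage, endothelial and pericyte marker RNA than the first, 56 ribosomal protein genes were called at day 3, with a median of 0.51, against 59 and 0.63 without the first. In Schwann cells macrophage markers stayed at or under 24.1 TPM, with Cx3cr1 at or under 3 counts in uncrushed cells, 4 endothelial markers at or under 6.51 TPM with Pecam1 at or under 3 counts in all groups but day 3, and 5 fibroblast markers at 292 to 741. The 3 markers of pericytes and smooth muscle summed to 13.2 to 106 TPM in Schwann cells against 370 to 580 in whole nerve, and the 3 perineurial markers to 23.7 to 46.6 against 188 to 364. Among the pericyte and smooth muscle markers, Pdgfrb went the other way in uncrushed nerve. It was higher in Schwann cells by 1.41 on the log2 scale (edgeR, adjusted p = 2.4e-07). Mean scaled FPKM of Pdgfrb was 30.9 in uncrushed Schwann cells against 11.7 in uncrushed whole nerve, and 3.40 in Schwann cells at day 3. Summed Schwann cell markers in purified cells fell from 20257 to 20520 TPM to 7889 to 8531 at day 3. The part of these changes in the levels of ribosomal protein genes was not tested.

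A second quantification covers part of the set. The deposited table of Schwann cell gene modules, groups of genes that the authors formed by co-expression network analysis, lists 68 of the 80 genes among its 6274, with FPKM from Cufflinks. Module 5 holds 34 of them, 37.8% of its 90 genes, module 10 holds 26, module 9 holds 7 and module 8 holds Rpl22l1. The modules were formed on Schwann cell values, so membership is a description. On log2(FPKM + 1) the 68 had median changes of 1.41, 1.43 and 1.33 at days 3, 5 and 7, where all genes of the table had 0.54, 0.87 and 0.66 and the counts of the same 68 genes gave 0.59, 0.61 and 0.69. Its 2 day 3 columns differed by a median of 0.75 for the 68 genes and 1.04 for those in module 5, against 0.04 for other genes. The RSEM libraries of day 3 differed by 0.07, 0.07 and -0.03 in the same sets. Without the second day 3 column the median change of day 3 in that table was 0.98.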

How the data were processed

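RNA of 16 rat sciatic nerve libraries (purified Schwann cells or whole nerve, 2 per group) was amplified with the Ovation system, which carries no molecular identifiers, so counting error is a lower limit of the true error. The submitters' processing notes name CASAVA, STAR and RSEM with the build Rnor_6.0. The authors deposited RSEM expected counts per gene, neither normalized nor filtered, together with the deposited TPM and FPKM, which RSEM scales to effective length and library size. A deposited table of modules holds FPKM that the authors computed with Cufflinks for Schwann cells. A deposited matrix repeats the expected counts. All columns of per-sample values were mapped (0 unused).

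Expected counts were rounded and tested with edgeR 4.0.16 in R 4.3.3 (quasi-likelihood F test, TMM, filterByExpr, Benjamini-Hochberg over all genes, threshold 0.05). Days were compared within each tissue in a fit of its 8 libraries, and tissues and differences of injury effect in a fit of all 16. The SE is the size of the log2 fold change over the square root of F. Whole nerve levels use factors of all 16 libraries, so their ratios differ slightly from its fold changes. TPM and FPKM were tested or described as log2(value + 1), with limma 3.58.1, a scale that understates changes of low genes. Scripts were tested on simulated data. Promoter windows hold 250 bases before and 50 after the start in RefSeq GRCr8, and no coordinate of Rnor_6.0 is given.

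Members, lists and tests were chosen with earlier results of these data known. Named genes are those with a fixed structural or paralog role, the 3 highest and 3 lowest per comparison, those called in opposite directions between tissues, and the extremes of each list at day 3 in Schwann cells; Rpl9, Rpl18, Rps20, Rps21, LOC100362027 and others outside that rule where named were chosen after their values were seen. Alternatives were DESeq2 1.42.0, upper quartile normalization, TMM without the 80 genes, an effective length offset, other filters, a replicate block, other sets of libraries, leaving out each library, and, chosen after seeing the data, Rpl30 summed with LOC100362027 and the module table without 1 column. Python 3.11.15 with pandas 2.3.3 and matplotlib 3.10.9 was used for summaries and plots.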

Additional observations from a re-analysis of the deposited data

Results flagged for a closer look

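The injury effect differed between Schwann cells and whole nerve by edgeR's test of the difference itself over 16 libraries. At day 3 it was larger in Schwann cells for 8 and larger in whole nerve for 1 of the 80 ribosomal protein genes, at day 5 for 49 and 0, and at day 7 for 23 and 0. Over all genes 12.3%, 12.6% and 11.6% were larger in Schwann cells, so the 8 of day 3 lie below that background, and of other genes of similar length and abundance 38.3%, 59.3% and 39.5% were larger. Leaving out 1 library gave 5 to 15 calls at day 3 and 15 to 28 at day 7, and DESeq2 gave 14 at day 3. On log2(TPM + 1) the calls were 0 larger and 32 smaller at day 3, then 4 and 2 at day 5, then 6 and 9 at day 7. By name these were Rplp1 (0.74), Rpl41 (0.71) and Rpl3 (-0.56) at day 3, Rpl30 (2.66), Rplp1 (1.32) and Rpl12 (1.05) at day 5, and Rplp1 (1.00), Rpl39 (0.99) and Rpl29 (0.94) at day 7, all as log2 differences, Schwann cells minus whole nerve. Rpl30 may share fragments with LOC100362027, an inference from fractional counts and lengths that was not tested on sequence, and the sum of both gave 0.29.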

How the results depend on the processing

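Of 223 recomputed counts of called genes 190 stayed within 1.5 times the first value. Of 136 medians 46 moved by more than the spread between replicates, 23 of them on leaving out 1 library, 11 with limma on log2(TPM + 1), 8 with upper quartile normalization and 4 in the module table, and 3 turned. Of 4795 values of single genes 287 lost their call, 136 gained one and 25 turned. Of the other 33, leaving out 1 library gave 20 and limma on log2(TPM + 1) gave 10. On that scale limma called 41 genes at day 3 in Schwann cells; 68 at day 5, 69 at day 7 and 7 between days 7 and 3 in whole nerve; 43, 34 and 45 between Schwann cells and whole nerve uncrushed and at days 5 and 7; and 32, 6 and 15 for the difference of injury effects at days 3, 5 and 7. On that scale medians turned for whole nerve day 5 (0.46) and for the difference at days 3 (-0.41) and 7 (-0.11). Single genes turned in whole nerve at day 3 (Rps14 0.36, Rps4x 0.31), at day 5 (Rpl11 0.44, Rpl13a 0.40, Rpl19 0.42, Rpl23a 0.39, Rpl26 0.12, Rpl29 0.39, Rpl31 0.32, Rpl35 0.48, Rpl37a 0.20, Rps12 0.26, Rplp1 0.17, Rps14 0.061, Rps23 0.42, Rps27a 0.30, Rps28 0.44, Rps4x 0.38, Rpsa 0.45) and at day 7 (Rps4x 0.11), and between Schwann cells and whole nerve uncrushed (Rpl3 0.53, Rpl7 0.43) and at day 7 (Rpl29 0.26, Rps2 0.26). Summing Rpl30 with LOC100362027 turned its tissue difference at day 5 (-0.39). The causes were not tested.

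Only the groups compared gave 17 calls in whole nerve at day 7, DESeq2 gave 14 for the difference at day 3, a window from the 10th to the 90th percentile moved the median of similar genes in whole nerve at day 7 to 0.10, and the share of expected counts rose 1.47-fold in Schwann cells. Without mitochondrial genes and Rn18s the share of TPM rose 1.26-fold in whole nerve. Replicate numbers do not pair the libraries (correlations of deviations from -0.058 to 0.084), and the replicate block gave 2 calls for Schwann cells day 7 against day 3, the 1 count it moved by over 1.5 times.

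Leaving out 1 library gave 56 to 63, 64 to 70 and 57 to 71 calls in Schwann cells on days 3, 5 and 7 and 1 to 3 between days 7 and 3; 34 to 40, 3 to 4 and 14 to 41 in whole nerve and 3 to 9 between days; 75 to 78, 78 to 80, 57 to 64 and 71 to 74 between tissues; and 5 to 15, 33 to 47 and 15 to 28 for the differences. The count for whole nerve day 5 fell to 4, 4, 4 and 3 without each of its 4 libraries, that for the difference at day 3 to 5 without the first uncrushed Schwann cell or the second whole nerve day 3 library and rose to 15 without the second uncrushed Schwann cell library, and that at day 7 fell to 15 without the second uncrushed whole nerve or the first Schwann cell day 7 library. The lowest count of Rpl10l in a library was 6, near the floor of 3 counts, and the 2 libraries of a group give little information on its spread.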
